A study of Mus musculus with 6 samples.

Results

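The epithelial identity transcription factors followed here, across the uterine epithelium of mice in early pregnancy, were the 9 genes Elf3, Elf5, Ehf, Grhl1, Grhl2, Grhl3, Ovol1, Ovol2 and Tfcp2l1. They were taken as every probe set that the array's gene annotation assigns to one of these 9 symbols, which gave 19 probe sets out of 45101 on the array, or 19 of the 34945 that carry exactly 1 gene symbol. Each of the 9 genes had at least 1 probe set, and a gene's main probe set below is the one with the highest mean log2 signal. The arrays were Affymetrix 3′ expression arrays, on which a probe set is a group of short probes for one transcript and its signal is a brightness on a linear scale.

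Uterine epithelium was freed from the organ with pancreatin and dispase, and 1 array was run per sample, with 2 samples in each of 3 groups. The Sox17 heterozygous group (samples 253 and 281, Sox17GFP/+ mice, with a GFP allele beside a wild-type one) was taken on day 4 of pregnancy. One wild-type group was also taken on day 4 (samples 277 and 284), and the other on day 1, the day of the vaginal plug (samples 302 and 303). All were female, the labels name no agent, and the labels used here state neither age nor strain. Sox17 is an HMG-box transcription factor made in the uterine epithelium, and day 4 is when the mouse uterus becomes ready for the embryo to attach. No heterozygous day 1 sample was analysed here, so a genotype effect can be read on day 4 only. Nothing in the labels says whether samples of a group came from separate animals, so the p-values below measure the spread between these samples. Where groups are said below not to overlap, that only describes the samples. With 2 samples against 2, such separation is common when nothing differs, and its share over all probe sets is not given here.

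The set spans 3 protein families. Elf3, Elf5 and Ehf are ETS factors largely restricted to epithelia, which bind a GGAA core. The grainyhead-like factors Grhl1, Grhl2 and Grhl3 switch on genes of cell adhesion, tight junctions and the epidermal barrier, and Tfcp2l1 belongs to the related CP2 branch. Ovol1 and Ovol2 are zinc finger repressors that keep mesenchymal regulators such as Zeb1 silent, so grainyhead-like and OVOL proteins are known together for holding cells in an epithelial state.

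The signals were those of an epithelial preparation. The 6 general epithelial markers (Epcam, Cdh1, Krt8, Krt18, Krt19 and Krt7) summed to 112312 and 111034 in Sox17 heterozygous samples, 95412 and 108902 in wild-type day 4 samples, and 128658 and 122616 in wild-type day 1 samples, with none under 50 on any array. Between the wild-type days Krt7 fell (-2.33 ± 0.23, limma adjusted p = 0.0138) and the 5 others did not pass. Krt7 read 3724 and 4323 in heterozygous samples, 2063 and 2285 on wild-type day 4, and 10906 and 10869 on wild-type day 1. The 10 stromal markers summed to 527 and 928 in heterozygous samples, 1825 and 2862 in wild-type day 4 samples, and 3546 and 8979 in wild-type day 1 samples. Smooth muscle markers (6) summed to 190 and 172 in heterozygous samples. On wild-type day 4 they summed to 392 and 309, and on wild-type day 1 to 893 and 891. Glandular markers (5) summed to 446 and 649, 726 and 276, and 1171 and 434 in the same order of groups. The 3 luminal markers did not move together between the wild-type days: Calb1 (5.11 ± 0.25, limma adjusted p = 0.00708) and Lpar3 (3.83 ± 0.22, 0.00806) rose and Met fell (-3.54 ± 0.33, 0.0133). Their sum, most of it Calb1 on day 4, was 47989 and 47698 in heterozygous, 78691 and 63452 in wild-type day 4, and 7984 and 6698 in wild-type day 1 samples. Met alone read 841 and 696 in heterozygous, 498 and 331 in wild-type day 4, and 5524 and 4055 in wild-type day 1 samples. The 6 macrophage markers summed to 13687 and 14297 in heterozygous, 16329 and 17048 in wild-type day 4, and 22534 and 21065 in wild-type day 1 samples. Cd14 read 12139 to 15709 over all arrays, while Adgre1, Csf1r and Ptprc stayed between 18.9 and 619. Between the wild-type days Cd68 fell (-5.01 ± 0.40, limma adjusted p = 0.0113), with 224 and 157 on day 4, against 6401 and 5746 on day 1. Lyz2 rose (2.42 ± 0.27, limma adjusted p = 0.0179), with 1223 and 980 on day 4, against 177 and 236 on day 1. The part of these marker changes in the results below was not tested. In bulk RNA of this kind, fewer cells of a type and less RNA per cell cannot be told apart. Array 277, a wild-type day 4 sample, stood apart from the other arrays. Its median signal was 138, where the 5 others ranged from 66.2 to 78.0. Signals under 50 made up 27.0% of that array and 41.6% to 44.6% of each other one. The median log2 change of all genes was 0.30 for wild-type day 4 minus day 1 and 0.05 without sample 277, and for heterozygous minus wild-type day 4 it was -0.20 and -0.02 without it. Sox17 itself, the gene carrying the altered allele, read 30189 and 28810 in heterozygous samples, against 34794 and 35060 in wild-type day 4 samples, on its main probe set 1429177_x_at. Its other probe set 1421657_a_at read 13304 and 13061 in heterozygous samples, against 22781 and 18473 in wild-type day 4 samples. Both were lower in the heterozygous samples without overlap, and neither passed the test (limma, log2 change -0.24 ± 0.22, adjusted p = 0.654, and -0.64 ± 0.23, adjusted p = 0.407).

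The promoters of the 3 genes that passed the test between the 2 wild-type days are shown first, because these are the members whose signal moved with day. They come from RefSeq on build GRCm38.p6 and run from 250 bases before to 50 bases after the annotated start, 5′ to 3′ on the gene's strand. Elf5 has a pair of annotated starts. Capitals mark a match to ACAAT, the core bound by SOX proteins, on either strand (ATTGT when read on the other strand).
Elf3, chr1:135258423-135258722, minus strand: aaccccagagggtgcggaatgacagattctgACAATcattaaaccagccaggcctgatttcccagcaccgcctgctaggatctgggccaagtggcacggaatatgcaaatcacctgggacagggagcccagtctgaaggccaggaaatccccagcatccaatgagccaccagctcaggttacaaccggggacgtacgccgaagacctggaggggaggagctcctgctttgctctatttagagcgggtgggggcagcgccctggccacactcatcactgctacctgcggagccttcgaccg
Elf5 first start, chr2:103411848-103412147, plus strand: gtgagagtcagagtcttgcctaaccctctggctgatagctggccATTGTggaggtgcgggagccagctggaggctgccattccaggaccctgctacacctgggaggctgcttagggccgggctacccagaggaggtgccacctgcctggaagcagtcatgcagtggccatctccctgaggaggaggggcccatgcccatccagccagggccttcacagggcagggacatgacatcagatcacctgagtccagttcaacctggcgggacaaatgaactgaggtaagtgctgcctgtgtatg
Elf5 second start, chr2:103423818-103424117, plus strand: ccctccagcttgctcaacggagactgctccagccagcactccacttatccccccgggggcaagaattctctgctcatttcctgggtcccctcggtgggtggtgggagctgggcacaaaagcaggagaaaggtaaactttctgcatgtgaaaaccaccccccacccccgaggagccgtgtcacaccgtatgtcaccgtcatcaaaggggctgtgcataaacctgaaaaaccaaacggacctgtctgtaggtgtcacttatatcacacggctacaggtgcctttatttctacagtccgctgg
Grhl3, chr4:135573583-135573882, minus strand: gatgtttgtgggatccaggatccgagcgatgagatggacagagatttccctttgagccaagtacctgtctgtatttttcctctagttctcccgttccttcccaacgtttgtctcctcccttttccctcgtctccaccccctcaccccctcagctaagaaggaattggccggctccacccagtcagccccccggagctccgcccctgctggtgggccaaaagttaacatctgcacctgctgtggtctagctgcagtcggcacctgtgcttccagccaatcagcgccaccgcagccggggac
The Elf3 promoter held 1 ACAAT, 219 bases before the start, and the first Elf5 start held 1 on its other strand, 206 bases before the start. The second Elf5 start and the Grhl3 promoter held none of the motifs searched, which were ACAAT, the grainyhead motifs AACCGGTT and AACNNGTT (the second covers the first), AGGAAG for ELF and EHF, and CCGTTA for OVOL, each on both strands. Among 32851 mouse promoters of this length, 31% held ACAAT, 35.4% AGGAAG, 4.2% AACNNGTT, 2.76% CCGTTA and 0.146% AACCGGTT. A match describes letters only, and a window without one says only that those letters are not in it. Promoters were matched for 6 of the 9 genes, Tfcp2l1, Ovol2 and Grhl1 being the others. Of those, the second Grhl1 start held an AGGAAG, 201 bases before it.

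On wild-type day 4, relative to wild-type day 1, Elf3 fell, Elf5 rose and Grhl3 fell, and no other main probe set of the 9 genes passed the test. The comparison addresses how epithelial regulators differ between the uterus about to receive an embryo and the uterus just after mating. Values were compared as log2(signal + 1) in limma, with all 6 arrays in 1 fit and Benjamini-Hochberg adjustment over 34945 probe sets at an adjusted p under 0.05. Of the 19 member probe sets 3 passed (15.8%), while 9.19% of all probe sets did. With the intensity trend, which lets the prior spread follow signal strength, 4 passed, while 20.7% of all did, so neither share sets the members apart. Changes given with ± are on the log2 scale, and the errors are limma's standard errors, with 2 arrays in each group.

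**Figure D1:**
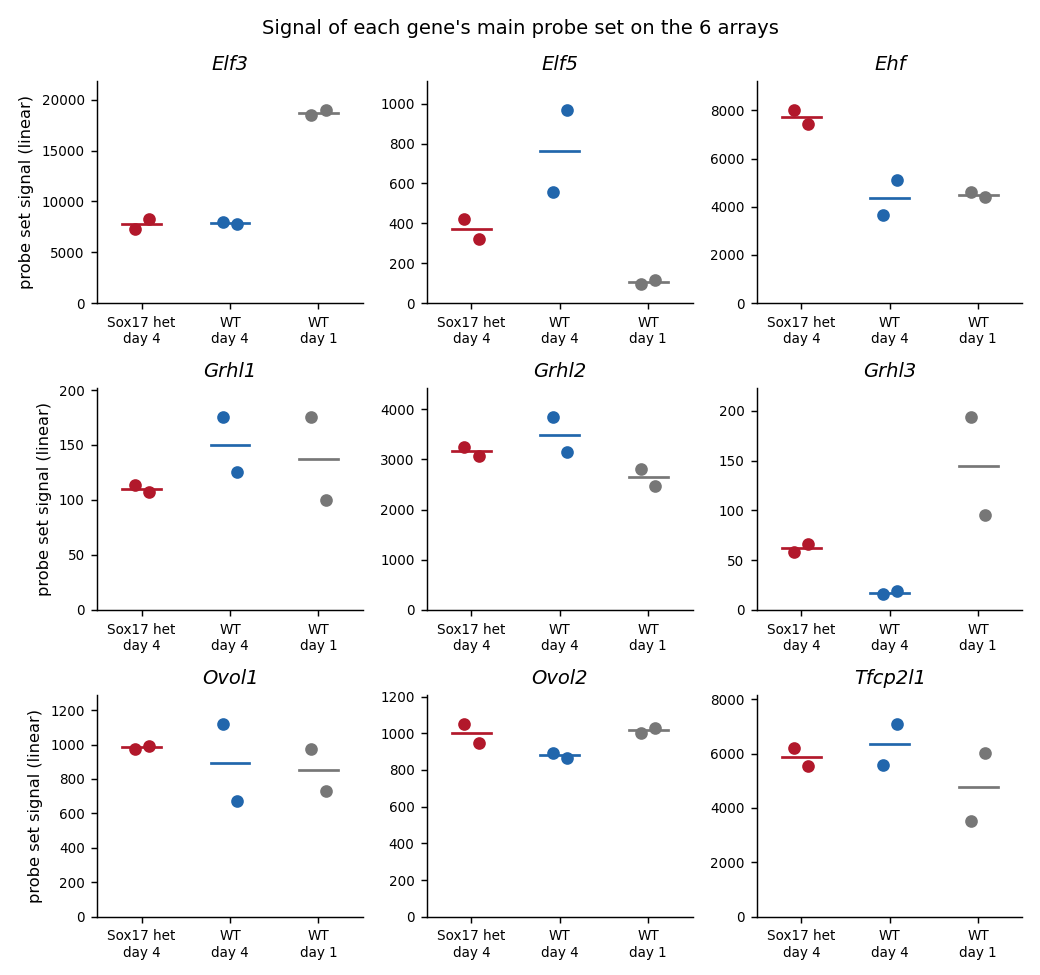
Signal of each gene's main probe set on every array, on a linear axis from 0 with its own scale per gene, with Sox17 heterozygous day 4 left, wild-type day 4 in the middle and wild-type day 1 right. Points are arrays and bars are group means (n = 2). Elf3 sits at 18474 and 18990 on day 1 and at 7318 to 8273 in the day 4 groups, Elf5 is lowest on day 1, and Grhl3 is lowest in wild-type day 4.

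Elf3, an ETS factor needed in mice for intestinal epithelium to mature, had signals of 7957 and 7818 in wild-type day 4 samples, against 18474 and 18990 in wild-type day 1 samples (probe set 1416916_at). Both day 4 samples lay far below both day 1 samples, and the samples of each group nearly coincided. The log2 change was -1.25 ± 0.22 (adjusted p = 0.0409), a mean day 4 signal 0.421 times that of day 1. Heterozygous day 4 samples read 7318 and 8273 and enclosed the wild-type day 4 values. Against wild-type day 1 their log2 change was -1.27 ± 0.22 (limma, adjusted p = 0.0490), in a comparison where genotype and day both differ and the day 1 arrays are shared. It was the only member called there, while 6.07% of all probe sets were, and its adjusted p was 0.0528 to 0.277 when any 1 array was left out. The call between the wild-type days did not hold either when 1 array was left out: its adjusted p was 0.0639 without sample 284, 0.0751 without 277, 0.129 without 253 or 281, 0.192 without 302 and 0.188 without 303. With the intensity trend the adjusted p between the wild-type days was 1.6e-04, and 0.00207 or less when any 1 array was left out. With arrays centred on their medians the call was lost, at an adjusted p of 0.122 by default and 0.0950 with the trend. In order of level, day 1 was highest, and the 2 day 4 groups did not differ beyond their spread. The genes with the most similar course over the 6 arrays, out of 9099 compared by the root mean square difference of their centred log2 values, were Aida (0.0543), Acot9 (0.0652) and Pgd (0.0652).

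Elf5, an ETS factor best known in mice for the secretory cells of the mammary gland and for the placenta's trophoblast, read 558 and 969 in wild-type day 4 samples, against 95 and 114 in wild-type day 1 samples (probe set 1419555_at). All day 4 values, heterozygous ones included, lay above day 1. Its log2 change between the wild-type days was 2.81 ± 0.37 (limma, adjusted p = 0.0240), a 7.30-fold higher mean signal. The second Elf5 probe set, 1419556_at, pointed the same way at dim signals of 189 and 65.2 on day 4, against 3.28 and 3.50 on day 1. It did not pass by default (log2 change 4.68 ± 1.00, limma adjusted p = 0.0626). With the trend it passed (limma, adjusted p = 0.0143), as it did with quantile normalization, with centring and with a pseudocount of 32. The call on 1419555_at held without sample 277 (limma, adjusted p = 0.0373) and without 284 (0.0422). It was lost without 253 or 281 (0.0810), 302 (0.151) or 303 (0.125), and with centring (0.0644). With the trend the adjusted p was 8.58e-05, and 0.00192 or less when any 1 array was left out. Heterozygous samples read 421 and 321 on this probe set, which placed them between the wild-type groups without overlap. Against wild-type day 1, where genotype and day both differ, that was a log2 change of 1.81 ± 0.37 (limma, adjusted p = 0.0702 by default and 0.00235 with the trend). Closest in course to Elf5 were Tmem14a (0.113), Dtx4 (0.190) and Agpat4 (0.200), by the same measure.

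Elf5 and Ehf lie next to each other on chromosome 2 in RefSeq's gene order, between Apip and Cat. Their neighbours on both sides rose between the wild-type days, Apip by 2.23 ± 0.37 (limma, adjusted p = 0.0369) and Cat, which encodes the enzyme catalase, by 2.62 ± 0.37 (adjusted p = 0.0276). Ehf, which lies between Apip and Elf5, had a log2 change of -0.06 ± 0.27 (limma, adjusted p = 0.912), with a 95% interval of -0.77 to 0.65. Its main probe set 1451375_at read 3654 and 5108 in wild-type day 4 samples, against 4610 and 4397 in wild-type day 1 samples. The day 4 pair enclosed the day 1 pair. Its 3 other probe sets, 1419475_a_at, 1419474_a_at and 1447760_x_at, had log2 changes of 0.05 ± 0.24, -0.25 ± 0.24 and 0.71 ± 0.66 (limma, adjusted p = 0.924, 0.560 and 0.549).

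Grhl3, which in mice drives epidermal barrier formation and closure of the neural tube, read 16.2 and 18.7 in wild-type day 4 samples, against 194 and 95.7 in wild-type day 1 samples (probe set 1436932_at). The samples did not overlap, but both wild-type day 4 values were under 50, where it is unknown whether a signal stands above background. Its log2 change was -2.90 ± 0.41 (limma, adjusted p = 0.0266). The adjusted p was between 0.0588 and 0.112 when any 1 array was left out. With the trend it was 0.0156, and the call was lost without sample 302 (0.243) or 303 (0.0612). Heterozygous samples read 58.0 and 66.0 and lay between the 2 wild-type groups. Against wild-type day 1 their log2 change was -1.13 ± 0.41 (limma, adjusted p = 0.203).

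Its relatives did not pass between the wild-type days. Grhl2, which in mice binds and activates Cdh1 and Cldn4, read 3849 and 3143 on day 4, against 2807 and 2479 on day 1, on 1427046_at (log2 change 0.40 ± 0.24, limma adjusted p = 0.364, 95% interval -0.23 to 1.03). Both day 4 values lay above both day 1 values. A dimmer Grhl2 probe set, 1452643_at, read 222 and 166 on day 4, against 56.1 and 91.9 on day 1 (log2 change 1.40 ± 0.35, limma adjusted p = 0.0859). The other pair, 1431877_a_at and 1431878_at, had log2 changes of -0.28 ± 0.25 and -0.03 ± 0.41, so the 4 Grhl2 probe sets disagreed in sign. Grhl1, a regulator of desmosome genes in mouse skin, read 176 and 125 on day 4, against 175 and 99.8 on day 1, and the groups overlapped (0.16 ± 0.38, limma adjusted p = 0.823, and -0.0519 with arrays centred on their medians). Tfcp2l1, known in mice for pluripotent stem cells and for the kidney's collecting duct, read 5591 and 7101 on day 4, against 3522 and 6014 on day 1, on 1418091_at. These groups overlapped as well (0.45 ± 0.35, limma adjusted p = 0.477). Its other 2 probe sets, 1460714_at and 1460715_x_at, had no signal above 26.7 on any array.

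Neither OVOL repressor passed between the wild-type days. Ovol1, which restrains cell growth in differentiating mouse epidermis, read 1122 and 670 on day 4, against 974 and 730 on day 1, on 1419051_at (log2 change 0.04 ± 0.35, limma adjusted p = 0.959, and -0.17 with centring). Its dimmer probe set 1419052_at read 94.1 and 42.4 on day 4, against 115 and 75.5 on day 1 (-0.55 ± 0.50, limma adjusted p = 0.542). Ovol2, which represses Zeb1, read 895 and 864 on day 4, against 1002 and 1031 on day 1, on 1449205_at. Its day 4 samples lay below its day 1 samples by a little (-0.21 ± 0.22, limma adjusted p = 0.589). The 95% intervals were -0.89 to 0.97 for Ovol1 and -0.78 to 0.36 for Ovol2, which leaves room for changes within them.

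**Figure D2:**
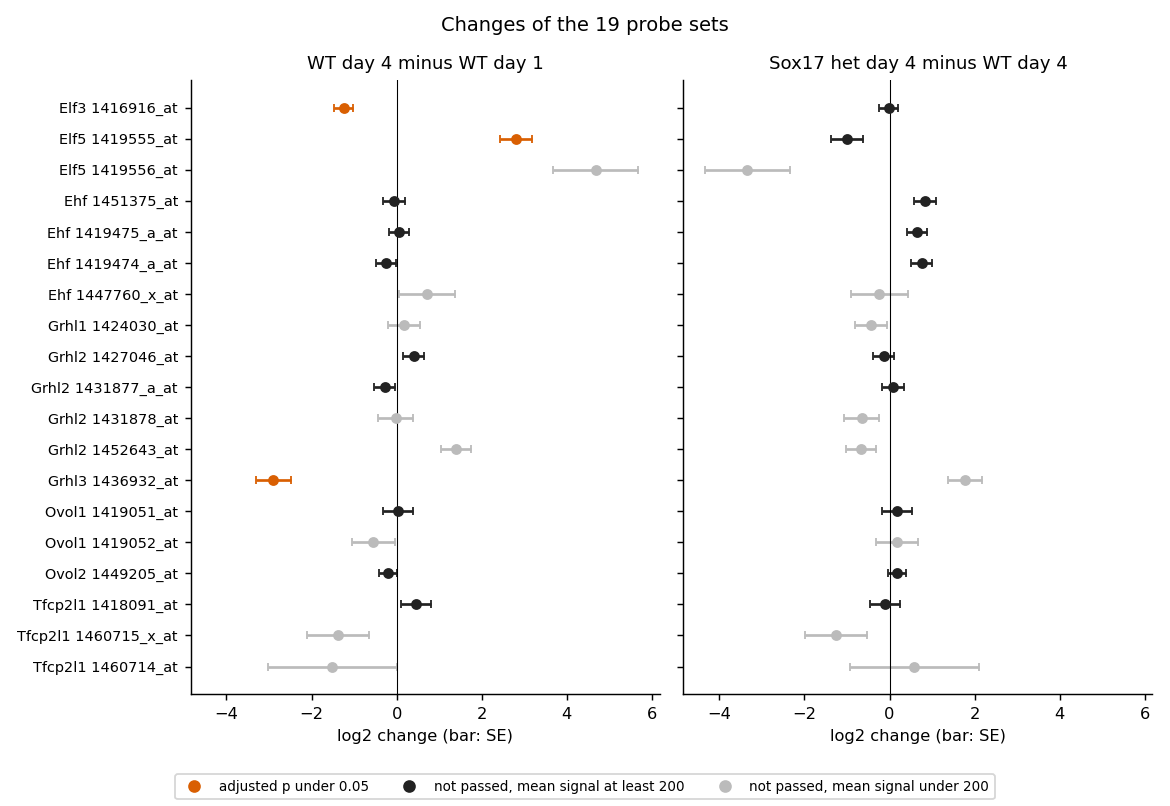
Log2 change of each of the 19 member probe sets with its standard error (bars; limma, 2 arrays per group), for wild-type day 4 minus wild-type day 1 on the left and Sox17 heterozygous minus wild-type day 4 on the right. Orange points passed an adjusted p under 0.05, and grey ones did not and have a mean signal under 200. Elf3 (-1.25), Elf5 (2.81) and Grhl3 (-2.90) are orange on the left, and no point is orange on the right.

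Between Sox17 heterozygous and wild-type epithelium on day 4, no member passed the test. The comparison asks what differs at this stage in mice heterozygous for the Sox17 mutation. By limma's default settings 0 of 34945 probe sets passed (0%), so none of the 19 members could. At an unadjusted p under 0.05 there were 4186 probe sets (12.0%), among them 6 of the 19 members. With the intensity trend 829 probe sets passed (2.37%), among them 2 members, which were both Ehf probe sets.

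Ehf, an ETS factor of glandular and ductal epithelia, read 8012 and 7428 in heterozygous samples, against 3654 and 5108 in wild-type day 4 samples, on 1451375_at. Probe set 1419475_a_at read 4775 and 4316 in heterozygous samples, against 2602 and 3203 in wild-type samples. On 1419474_a_at the signals were 2205 and 1990 in heterozygous samples, against 1355 and 1138 in wild-type samples. On all 3, both heterozygous samples lay above both wild-type day 4 samples and above both wild-type day 1 samples. With 2 samples in a group this order is a description and not a test. The log2 changes against wild-type day 4 were 0.84 ± 0.27, 0.65 ± 0.24 and 0.75 ± 0.24 (limma, adjusted p = 0.371, 0.406 and 0.373). With the intensity trend the adjusted p-values were 0.0380, 0.0663 and 0.0484. The fourth probe set, 1447760_x_at, was dim and overlapped, at 89.3 and 50.8 in heterozygous samples, against 145 and 43.6 in wild-type samples. Probe sets of 1 gene share its RNA and are not separate evidence.

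That Ehf call rested on few arrays. With the intensity trend, the adjusted p of 1451375_at was 0.346 without sample 253, 0.183 without 281, 0.0512 without 302 and 0.0535 without 303, and it was 0.402 when each array was also centred on its median. Without sample 277, which stood apart, it was 0.0831, and the log2 change was 0.59. The other Ehf probe set that passed with the trend, 1419474_a_at, kept that call without 277 alone (limma, adjusted p = 0.0494). Without any other array its adjusted p was between 0.0570 and 0.453, and with the trend it was 0.259 after centring and 0.0835 after quantile normalization. Against wild-type day 1, where genotype and day both differ, the log2 change of Ehf 1451375_at was 0.78 ± 0.27 (limma, adjusted p = 0.187). With the trend its adjusted p there was 0.0112, and that call was lost when arrays were also centred. Parl (0.0997), Smim10l1 (0.103) and Spg20 (0.103) followed Ehf most closely over the 6 arrays.

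**Figure D3:**
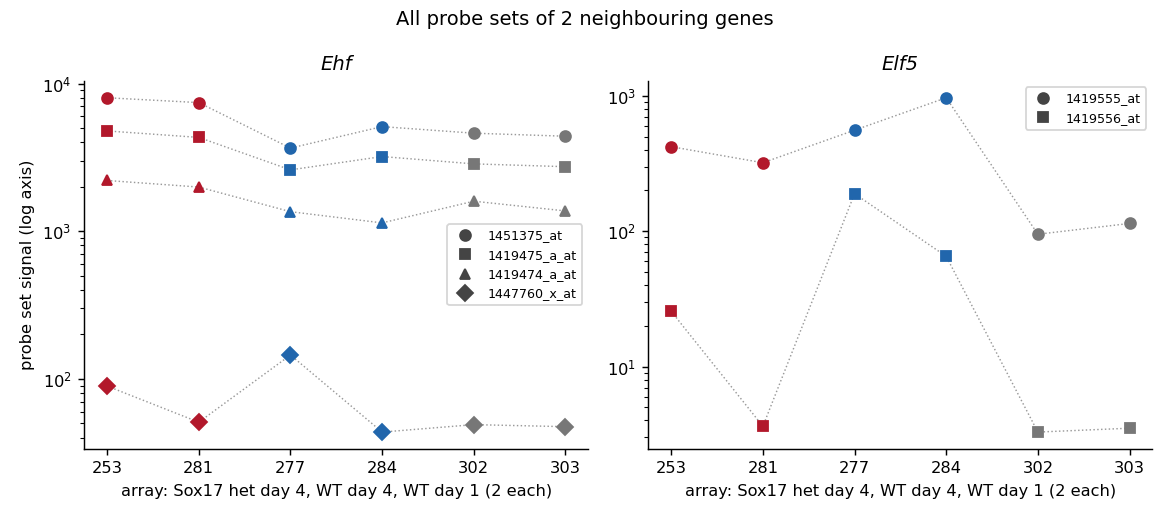
Signals of the Ehf and Elf5 probe sets on each array, on a log axis, with Sox17 heterozygous day 4 left, wild-type day 4 in the middle and wild-type day 1 right. Points are arrays (n = 2 per group), and dotted lines join the points of 1 probe set. On 3 of 4 Ehf probe sets the heterozygous samples are the highest of all 6, and on Elf5 1419555_at they lie between the wild-type groups.

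Elf5 was lower in heterozygous samples without passing the test. On 1419555_at the heterozygous signals of 421 and 321 lay below the wild-type day 4 signals of 558 and 969 (log2 change -0.998 ± 0.371, limma adjusted p = 0.415, 95% interval -1.98 to -0.01). The dim probe set 1419556_at read 25.6 and 3.62 in heterozygous samples, against 189 and 65.2 in wild-type samples (-3.34 ± 1.00, adjusted p = 0.353). Elf5 thus lay lower and Ehf, on its brighter probe sets, higher, which only describes these samples. Probe sets of Grhl1, Grhl2, Grhl3 and Ovol2 did not overlap between these groups either. The flanking genes Apip and Cat had log2 changes of -0.50 ± 0.37 and -0.60 ± 0.37 (limma, adjusted p = 0.60 and 0.548).

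Grhl3 read 58.0 and 66.0 in heterozygous samples, against 16.2 and 18.7 in wild-type day 4 samples, the smallest unadjusted p of the 19 probe sets (log2 change 1.77 ± 0.41, limma adjusted p = 0.286). All 4 values were low. Elf3, which changed with day, differed by -0.02 ± 0.22 between the day 4 groups (limma, adjusted p = 0.972), and its 95% interval of -0.59 to 0.55 leaves room for differences up to that size. With arrays centred on their medians the signs of the small Elf3, Grhl2 and Tfcp2l1 differences turned (0.25, 0.14 and 0.17). Grhl2 read 3249 and 3072 in heterozygous samples, against 3849 and 3143 in wild-type samples (-0.14 ± 0.24, limma adjusted p = 0.817, 95% interval -0.77 to 0.49). These groups overlapped. Tfcp2l1 read 6197 and 5558 in heterozygous samples, against 5591 and 7101 in wild-type samples, and overlapped too (-0.10 ± 0.35, limma adjusted p = 0.910, 95% interval -1.04 to 0.83). Ovol1 read 974 and 994 in heterozygous samples, against 1122 and 670 in wild-type samples (0.18 ± 0.35, limma adjusted p = 0.838). Ovol2 read 1053 and 946 in heterozygous samples, against 895 and 864 in wild-type samples, with both heterozygous samples the higher (0.18 ± 0.22, limma adjusted p = 0.734). Grhl1 read 113 and 107 in heterozygous samples, against 176 and 125 in wild-type samples, with both heterozygous samples the lower (-0.43 ± 0.38, limma adjusted p = 0.653). The remaining probe sets were Grhl2 1431877_a_at, 1431878_at and 1452643_at, Ovol1 1419052_at and Tfcp2l1 1460714_at and 1460715_x_at. Their adjusted p-values in this comparison were between 0.498 and 0.903.

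The brighter member probe sets can be set beside the rest of the array. Of the 19, 10 had a mean signal of at least 200, as had 15167 probe sets in all. A 2-fold change is counted here as a log2 change of at least 1 in size, from means of log2 values. Between the wild-type days 2 of these 10 reached it, while 29% of all bright probe sets did, and the median size of change was 0.27 for members and 0.55 for all. Between heterozygous and wild-type day 4 samples 0 of 10 reached it, while 7.27% of all did, and the median sizes were 0.18 for members and 0.29 for all. Elf5 1419555_at fell just short at -0.998, and its ratio of mean signals, heterozygous over wild type, was 0.486. These are descriptions of 10 probe sets from 7 genes, and no difference between the set and the array was tested.

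**Figure D4:**
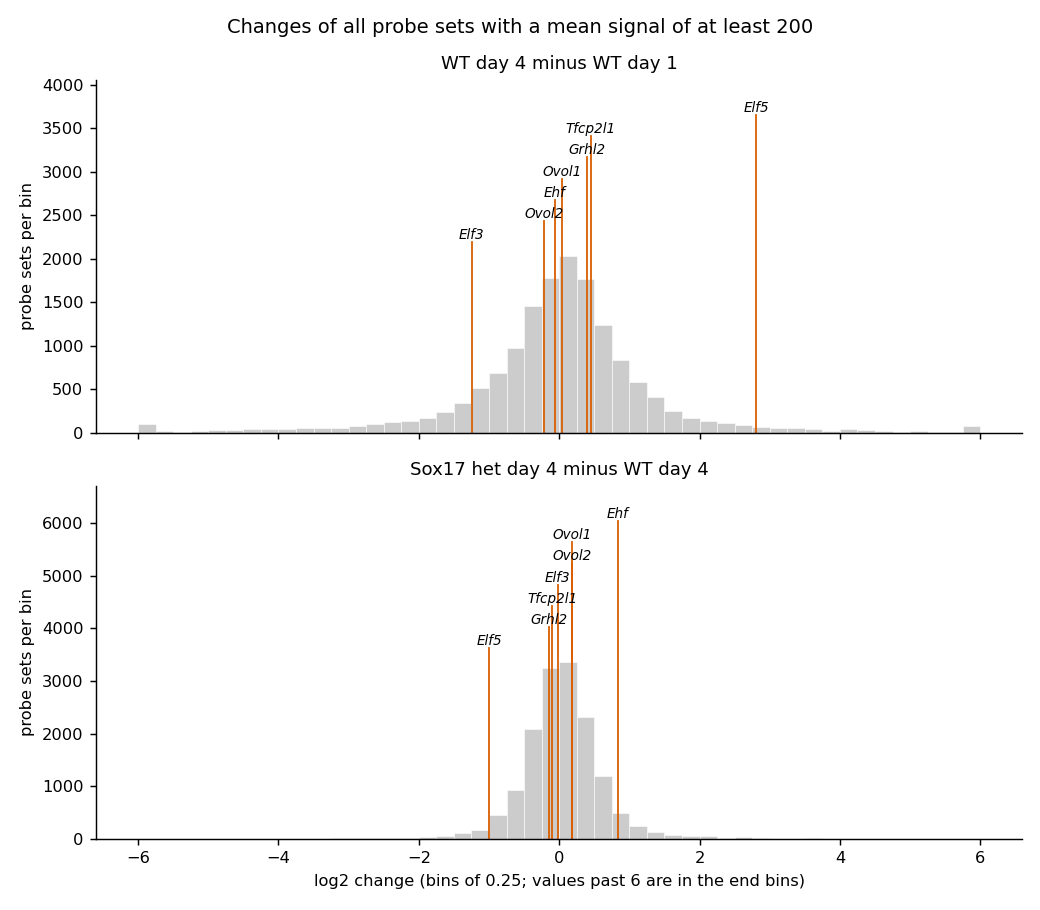
Distribution of log2 changes over the 15167 probe sets with a mean signal of at least 200 (grey bars, number of probe sets per bin), with lines for the main probe sets of the 7 bright members, for wild-type day 4 minus wild-type day 1 (top) and Sox17 heterozygous minus wild-type day 4 (bottom). Changes past either end of the axis are counted in its last bin. At the top Elf5 (2.81) and Elf3 (-1.25) lie past a 2-fold change, and at the bottom the members run from Elf5 at -0.998 to Ehf at 0.84.

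The genes these factors act on were followed as a list of 30 epithelial targets, chosen from general knowledge with earlier results of these data in view, of which 28 were measured. Between the wild-type days 2 rose and 0 fell, and the list's median log2 change was -0.20, against 0.30 for all genes. All genes include many dim ones, while the targets were mostly bright, with a median signal of 2817 to 3552 per array. Genes with a mean signal of at least 200 had a median change of 0.10. Over all genes' main probe sets 5.96% rose and 4.58% fell. Arhgef19, which Grhl3 activates in mice, rose by 2.35 ± 0.33 (limma, adjusted p = 0.0266), with signals of 583 and 485 in wild-type day 4 samples, against 84.0 and 127 in wild-type day 1 samples. Cldn3, a tight junction claudin, rose by 1.39 ± 0.23 (adjusted p = 0.0385). The surface protease gene St14 had a log2 change of -1.06 ± 0.21 (adjusted p = 0.0550) and the junction gene Tjp3 one of -1.38 ± 0.32 (adjusted p = 0.0733). With the intensity trend, by which 24.4% of all genes passed, 4 of the 28 rose and 12 fell, so the balance of calls turned with the variance model. By default settings without sample 277, 0 of the 28 rose and 1 fell. Cdh1 (-0.22 ± 0.33, limma adjusted p = 0.709), Epcam (-0.59 ± 0.21, 0.172), Esrp1, a splicing factor of epithelia (0.47 ± 0.23, 0.282), and Cldn4 (-0.95 ± 0.26, 0.102) did not pass.

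In heterozygous against wild-type day 4 samples 0 of the 28 targets passed, with a median of -0.10, against -0.20 for all genes. For genes with a mean signal of at least 200 the median was 0.004. The targets' median was 0.17 when arrays were centred on their medians, so its sign depends on scaling. Cldn4, a claudin that Grhl2 activates, read 6554 and 6733 in heterozygous samples, against 3599 and 3942 in wild-type day 4 samples, and 8510 and 6246 in wild-type day 1 samples. It was the 1 target that passed with the intensity trend, by which 3.11% of all genes passed (log2 change 0.82 ± 0.26, limma adjusted p = 0.370 by default and 0.0380 with the trend). With the trend its adjusted p was 0.294 without sample 253, 0.251 without 281, 0.115 without 277, and 0.388 when arrays were also centred. The remaining targets of smallest p were Tgm1, the barrier enzyme transglutaminase (-1.30 ± 0.48, adjusted p = 0.413, dim on every array), St14 (-0.49 ± 0.21, 0.454) and Cdh1 (0.51 ± 0.33, 0.557). Epcam and Esrp1 had log2 changes of -0.11 and 0.15.

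The 12 mesenchymal regulators and products, genes of the programme that OVOL and grainyhead-like proteins oppose, were mostly dim. Their signals summed to 1187 and 823 in heterozygous samples, 1427 and 1059 in wild-type day 4 samples, and 1879 and 2595 in wild-type day 1 samples. Between the wild-type days 1 of 12 passed, by falling, as 4.58% of all genes did. Tcf4, an E-protein that can repress Cdh1, fell by 2.35 on the log2 scale (SE 0.25, limma adjusted p = 0.0164), with 156 and 131 on day 4, against 758 and 706 on day 1. Zeb1 read 34.6 and 23.1 in heterozygous samples, 207 and 23.7 in wild-type day 4 samples, and 51.0 and 41.4 in wild-type day 1 samples, and its single high value was on array 277.

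In heterozygous against wild-type day 4 samples 0 of the 12 passed. Their median log2 change was -0.95, and 0.04 without sample 277, so array 277 decides its sign. Cdh2, which encodes N-cadherin, read 503 and 162 in heterozygous samples, against 2.95 and 10.7 in wild-type day 4 samples and 12.8 and 20.4 in wild-type day 1 samples (log2 change 5.40 ± 0.81, limma adjusted p = 0.204 by default and 0.0187 with the trend). Both heterozygous samples lay far above the other 4, but all 4 wild-type signals were under 50, where the background is unknown, so the size of the change is uncertain. With the trend the adjusted p was 0.344 without sample 253 and 0.0807 without 281, and 0.0449 or less without any other array. Tcf4 (0.98 ± 0.25, limma adjusted p = 0.311), Fn1, fibronectin (-1.46 ± 0.39, 0.324), and Twist2 (-1.95 ± 0.76, 0.424) did not pass. Beside these stand the stromal markers, whose sums were given above. Of the 10, 7 and 4 were under 50 in heterozygous samples, against 1 and 4 in wild-type day 4 samples. By default 0 passed, as did 0 of all probe sets. With the trend, by which 3.11% of all genes passed, 1 of the 10 did. It was Col3a1, which was lower (-3.16 ± 0.96, limma adjusted p = 0.0304 with the trend). The median log2 change of the 10 stromal markers was -1.27, and -1.48 without sample 277. Their part in the result was not tested.

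Of 15 listed family relatives 14 were measured, and between the wild-type days 2 rose and 2 fell, where 5.96% of all genes rose and 4.58% fell. The list median was -0.11, against 0.30 for all genes and 0.10 for those with a mean signal of at least 200. The ETS genes Etv5 (4.15 ± 0.30, limma adjusted p = 0.0105) and Ets1 (3.25 ± 0.26, 0.0113) rose. Etv5 read 24.5 and 24.7 in wild-type day 1 samples, under 50, so the size of its change is uncertain. The ETS genes Elk3 (-3.37 ± 0.24, 0.0102) and Ets2 (-1.66 ± 0.27, 0.0341) fell. Ets1, known in mice for lymphoid and endothelial cells, read 421 and 330 in heterozygous samples, against 959 and 1199 in wild-type day 4 samples and 110 and 113 in wild-type day 1 samples. That is the same order as Elf5, with heterozygous samples between the wild-type groups. Between the day 4 groups 0 of 14 passed by default. With the trend Ets1 passed (log2 change -1.52 ± 0.26, limma adjusted p = 0.227 by default and 0.0132 with the trend), and Etv5 did not (-1.61 ± 0.30, 0.246 and 0.119). The Ets1 call with the trend was lost without sample 253 (limma, adjusted p = 0.103) or 281 (0.161) and when arrays were also centred (0.267). The 5 endothelial markers, beside which Ets1 is read, summed to 164 and 164 in heterozygous samples, 487 and 283 in wild-type day 4 samples, and 126 and 155 in wild-type day 1 samples. They were dim, and under 50 were 3 and 4 of them in heterozygous, 0 and 2 in wild-type day 4, and 4 and 4 in wild-type day 1 samples. Of the 5, 1 passed between the wild-type days, Vwf, which rose (4.66 ± 0.59, limma adjusted p = 0.0222). Vwf read 55.3 and 73.8 in heterozygous, 104 and 97.0 in wild-type day 4, and 1.31 and 6.02 in wild-type day 1 samples. The last pair was under 50, so the size of its change is uncertain. The 4 measured lymphocyte markers summed to 158 and 131, 519 and 172, and 260 and 210 in that order. The highest sum of both lists was on array 277. Their part in the result was not tested.

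Of 20 listed other epithelial transcription factors 16 were measured, and between the wild-type days 2 rose and 1 fell, beside 5.96% and 4.58% of all genes. The list median was -0.38, that of all genes 0.30, and that of genes with a mean signal of at least 200 was 0.10. Sox17 rose by 2.09 ± 0.22 (limma, adjusted p = 0.0152) and Gata2, which acts in progesterone signalling in the mouse uterus, by 1.86 ± 0.23 (0.0212). Neither rise passed when arrays were centred on their medians. Sox9, an SRY-related factor of many epithelial progenitors, had 129 and 72.4 in wild-type day 4 samples, against 1289 and 2027 in wild-type day 1 samples (-4.05 ± 0.43, limma adjusted p = 0.0159). Klf4, a zinc finger factor of differentiated epithelium, did not pass (-1.06 ± 0.27, 0.0860). Between heterozygous and wild-type day 4 samples 0 of 16 passed. The median of -0.26 there became 0.04 with quantile normalization and 0.02 with centring. Emx2, a homeobox factor of the mouse reproductive tract (0.81 ± 0.28, limma adjusted p = 0.391), and Sox9 (1.02 ± 0.43, 0.447) had the smallest p-values.

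**Figure D5:**
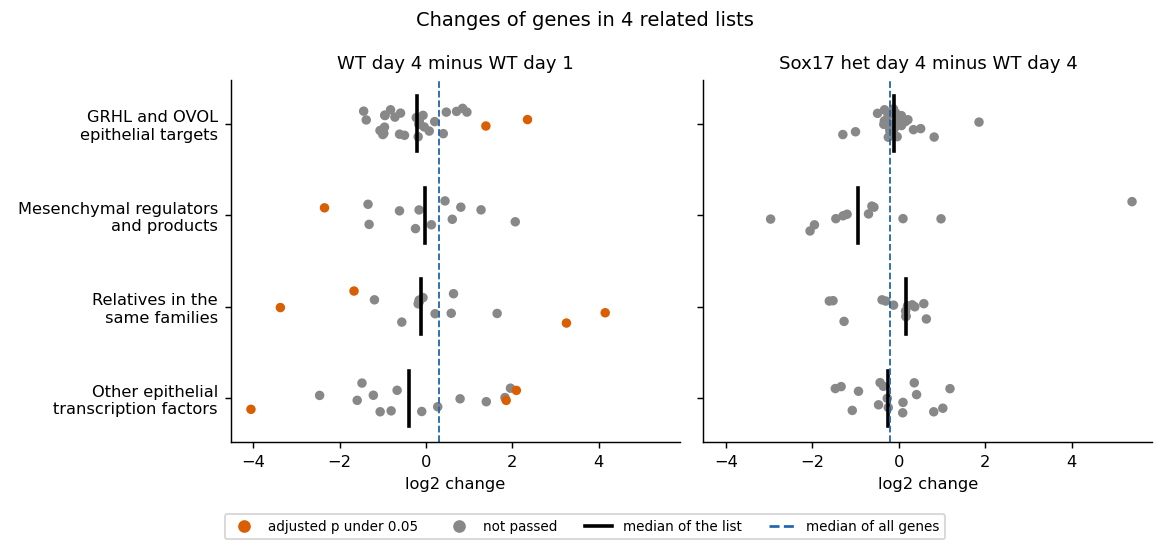
Log2 change of each measured gene (points, orange where an adjusted p under 0.05 was reached), the list median (black bar) and the median of all genes (dashed line) for the 4 lists around the 9 factors, for wild-type day 4 minus wild-type day 1 on the left and Sox17 heterozygous minus wild-type day 4 on the right. The 28 epithelial targets centre at -0.20 and -0.10. Etv5, whose wild-type day 1 signals were under 50, and Sox9 mark the ends of their lists on the left. Cdh2, whose wild-type signals were all under 50, is at 5.40 on the right.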

How the data were processed

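RNA of uterine epithelium was amplified, labelled with biotin and hybridised to 1-colour arrays, per the labels' protocols. The authors deposited 1 linear intensity per probe set, scaled so that each array's mean, after trimming 2% at each end, was 500.003. Per the submitters' processing notes, the tools were Transcriptome Analysis Console, Affymetrix Expression Console and RMA. Neither versions nor their roles are stated, and linear values are not RMA's usual log2 form. The arrays differ in median signal (66.2 to 138) and in highest signal (44185 to 79235). So the deposited values were not quantile normalized, as RMA's usually are, and the summary method is not stated. Detection calls were not used, and a signal under 50 is read as low.

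The 34945 probe sets with 1 gene symbol in the platform annotation were analysed as log2(signal + 1), without a filter. This scale makes the changes of dim probe sets look smaller. limma 3.58.1 in R 4.3.3 was fitted to all 6 arrays with 1 coefficient per group and 3 residual degrees of freedom, with eBayes defaults and Benjamini-Hochberg adjustment over all of them. No exact permutation test was run, since 2 arrays a side allow no p under 0.333. The number of arrays limits the precision. The fit was tested on simulated data.

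The 9 genes, the gene lists and the tests were chosen with earlier results of these data known. All member probe sets are named. From each list up to 4 genes of smallest p per comparison are named, with Cdh1, Epcam, Esrp1, Zeb1, Cldn4 and Sox17, and for the 3 bright members of largest range the 3 genes of most similar course. Krt7, Krt8, Apip, Cat and marker genes were named outside that rule. Alternatives were quantile normalization, centring on array medians, another pseudocount, a signal filter, trend and robust priors, 1 probe set or the mean per gene, array weights, 4-array fits and leaving out each array. Promoter sequences are RefSeq's on GRCm38.p6.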

Additional observations from a re-analysis of the deposited data

How the results depend on the processing

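Between the wild-type days 3210 probe sets passed, and 3 of the members' 19. A pseudocount of 32 gave 5392 and 5 members, a mean signal of at least 200 gave 6468, the intensity trend 7249, averaging the probe sets of each gene 1811, array weights 1598 and 1 member, only the 4 arrays compared 0 and 0, and quantile normalization 5 members. Leaving out 1 array gave 0 to 3142 probe sets and 0 to 2 members: 0 without 302, 303, 253 or 281, 2222 without 277 and 3142 without 284. So every call of the default fit between the wild-type days was lost when any of those first 4 arrays was left out. Samples 253 and 281 are heterozygous, so leaving out either altered the estimate of spread and not the wild-type log2 changes. The cause of the loss without 302 or 303 was not tested. Of the calls, 54.9% were higher on day 4, and 42.8% were after centring on array medians.

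Between Sox17 heterozygous and wild-type day 4 samples the count of 0 became 491 with a mean signal of at least 200 and 829, with 2 members, with the trend. It was 0 when any 1 array was left out. Between heterozygous day 4 and wild-type day 1 samples 2122 probe sets and 1 member passed. A pseudocount of 32 gave 4161 and 2, a mean signal of at least 200 gave 5440 and 4, the trend 5988 and 4, averaging the probe sets of each gene 1268, array weights 4864 and 3, quantile normalization 2 members, centring 0, the robust prior 0 and only the 4 arrays compared 2. Leaving out 1 array gave 0 to 2632 probe sets and 0 to 2 members.

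Among called members, the wild-type day change of Elf3 had an adjusted p of 0.122 with centring (0.0950 with trend and centring), 0.0790 with array weights and 0.129 with 4 arrays. Elf5 1419555_at had 0.0644 with centring and 0.0810 with 4 arrays, and Grhl3 0.0636 with array weights and 0.0905 with 4 arrays.

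The sign turned for small changes that did not pass. Between the wild-type days Grhl1 was -0.0386 with quantile normalization and -0.0519 with centring, Ovol1 -0.17 with centring and -0.26 as the mean of its probe sets, Ehf 1419475_a_at -0.17 with centring (also with the trend), Ehf 0.11 and Tfcp2l1 -0.81 as means of their probe sets. Between heterozygous and wild-type day 4 samples with centring, Elf3 was 0.25 (also with the trend), Grhl2 0.14 and Tfcp2l1 0.17. With 1 array left out, the wild-type day changes ran from -0.24 to 0.57 for Grhl1, -0.33 to 0.41 for Ovol1, -0.30 to 0.18 for Ehf 1451375_at and -0.10 to 0.20 for Ehf 1419475_a_at, and the genotype changes from -0.285 to 0.0074 for Grhl2, -0.19 to 0.55 for Ovol1, -0.275 to 0.0700 for Tfcp2l1 and -0.108 to 0.0690 for Elf3. Of the log2 changes of member probe sets recomputed under the other settings, 255 kept direction and side of the threshold, 16 newly passed, 10 no longer passed and 10 turned sign. When 1 array was left out the counts were 158, 2, 22 and 10. The trend with centring, with quantile normalization and with 1 array left out was added after the data were seen.

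No paired analysis was possible because the groups share no replicate numbers. Without detection calls it is unknown which signals stood above background, which limits Grhl3, Elf5 1419556_at and the other dim probe sets. Under centring 1 of the 28 epithelial targets rose and 0 fell between the wild-type days, and of the 14 relatives 2 rose and 1 fell.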
